A study of Mus musculus with 6 samples.

Results

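The 10 genes described here encode surface receptors, junction proteins and glycoproteins of endothelial cells, the cells that line blood vessels: Kdr, Flt1, Tek, Tie1, Pecam1, Cdh5, Vwf, Rasip1, Eng and Emcn. All 10 were measured, by 14 probe sets of the 22626 on the array that are not controls, and they are 10 of the 12393 genes with a probe set of their own. A probe set is a group of short array probes that read one transcript, and a gene's probe sets were taken where the array annotation gives that single gene symbol. The genes were chosen with the difference between TFEB KO and WT muscle already known. Their values, calls and intervals in that comparison are therefore a description and test nothing.

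The muscle RNA of 3 TFEB KO and 3 WT mice, all C57BL/6 and 1 month old, was hybridised to 1 Affymetrix array per mouse. TFEB KO mice carried floxed Tcfeb alleles (Tcfeb is the older name of Tfeb) and an MLC1f-Cre transgene, whose myosin light chain 1f promoter drives Cre in muscle fibers. The sources used here do not name the muscle, nor say whether the WT mice carried floxed alleles or Cre. Values are on the log2 scale after RMA, which corrects the background, normalizes the arrays and summarises each probe set. Its normalization largely removes any shift common to most genes. Tfeb itself read 7.10, 7.23 and 7.04 in TFEB KO arrays, against 8.61, 8.55 and 8.96 in WT arrays. Markers of muscle fibers averaged 14.26 to 14.33 in TFEB KO arrays and 14.32 to 14.35 in WT arrays, and arrays of one group correlated at 0.992 to 0.997 over all probe sets, against 0.989 to 0.993 between groups. Most of these fiber markers read near the upper end of the scale, where a difference may be compressed. Of 12, 0 passed the test used below, and the smallest p-values were those of Myh2 (-0.57, adjusted p = 0.098 from limma, all TFEB KO arrays below all WT arrays) and Mb (0.15, adjusted p = 0.47).

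Capillaries run along every muscle fiber, and their endothelium depends on signals from the tissue around it. VEGF ligands act through KDR (VEGFR2), the main signaling receptor for endothelial growth. FLT1 (VEGFR1) shares the ligand VEGFA with KDR and limits how much of it reaches KDR. Angiopoietins act through TEK (TIE2), which works with its relative TIE1 to keep vessels stable. VE-cadherin (Cdh5) and PECAM1 hold neighboring endothelial cells together, and RASIP1 links the small GTPase RAP1 to these junctions. Because whole muscle was used, fewer endothelial cells and less of these RNAs in each cell cannot be told apart.

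The promoters of 4 of the genes are shown because they belong to the 2 genes with the largest differences, Rasip1 and Kdr, and to the related pair Tie1 and Tek, whose differences were unlike. Each line gives the 250 bases before the RefSeq start of the gene in build GRCm38.p6, read 5′ to 3′ along the gene's own strand. Capitals mark GGAA or its complement TTCC, the core letters bound by ETS factors, a family that includes regulators of endothelial genes.
Rasip1: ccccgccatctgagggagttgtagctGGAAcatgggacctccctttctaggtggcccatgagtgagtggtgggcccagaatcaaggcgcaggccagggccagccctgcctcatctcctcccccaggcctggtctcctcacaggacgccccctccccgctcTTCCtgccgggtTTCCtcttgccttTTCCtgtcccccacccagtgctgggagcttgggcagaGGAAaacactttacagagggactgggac
Kdr: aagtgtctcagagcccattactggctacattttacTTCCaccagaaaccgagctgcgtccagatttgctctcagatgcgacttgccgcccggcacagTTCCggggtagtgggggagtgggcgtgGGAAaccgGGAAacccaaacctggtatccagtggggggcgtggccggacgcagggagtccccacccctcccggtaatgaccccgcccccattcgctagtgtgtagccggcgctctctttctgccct
Tie1: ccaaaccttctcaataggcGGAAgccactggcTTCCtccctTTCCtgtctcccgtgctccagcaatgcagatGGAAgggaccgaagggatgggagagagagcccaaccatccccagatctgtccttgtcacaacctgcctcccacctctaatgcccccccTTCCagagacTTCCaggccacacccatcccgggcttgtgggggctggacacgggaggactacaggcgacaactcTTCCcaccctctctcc
Tek: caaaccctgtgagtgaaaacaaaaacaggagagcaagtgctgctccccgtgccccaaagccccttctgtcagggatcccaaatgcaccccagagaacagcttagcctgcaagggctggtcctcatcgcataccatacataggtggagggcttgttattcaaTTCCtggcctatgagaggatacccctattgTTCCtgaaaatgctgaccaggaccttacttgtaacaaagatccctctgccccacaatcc
These windows are chr7:45627287-45627536 (plus strand) for Rasip1, chr5:75978456-75978705 (minus strand) for Kdr, chr4:118489850-118490099 (minus strand) for Tie1 and chr4:94739039-94739288 (plus strand) for Tek. GGAA on either strand occurred 5 times in the Rasip1 window, 4 times in that of Kdr, 7 times in that of Tie1 and 2 times in that of Tek. Over all 32851 promoter windows in the table, the median was 3 copies, and 93.4% held at least 1, so the presence of the letters sets no gene apart. Windows were found for 7 of the 10 genes (also Flt1, Eng and Emcn, with 3 to 4 copies). CACGTG, the core letters of the CLEAR site that TFEB binds, was in 0 of these 7 windows and in 6.02% of all windows. The longer ETS match CAGGAAG (either strand, overlapping the core) was in the windows of Emcn and Rasip1 and in 10.8% of all windows. These are matches of letters within 250 bases, not measured sites.

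Of the 10 genes, 9 read lower in every TFEB KO array than in any WT array, and Tek was the exception. On the brightest probe set of each gene, the one with the highest mean over the 6 arrays, the differences (TFEB KO minus WT) ran between -0.96 for Rasip1 and -0.03 for Tek, with a median of -0.65. The median over all 12393 genes was -0.01. By probe set, 13 of 14 had all TFEB KO arrays below all WT arrays, where 13.3% of all probe sets did so, and by gene 12.9% did. At an adjusted p under 0.05 (limma, Benjamini-Hochberg over all probe sets), 5 of the 14 probe sets and 5 of the 10 genes were lower (Kdr, Flt1, Pecam1, Vwf and Rasip1), where 0.844% of all probe sets and 0.702% of all genes were. These counts describe genes picked on the same values. Their number moved with single arrays: 3 genes without TFEB KO 1, 1 without TFEB KO 2, 3 without TFEB KO 3, 0 without WT 1, 1 without WT 2 and 3 without WT 3. The median difference stayed between -0.69 and -0.57 when each array was left out in turn.

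**Figure D1:**
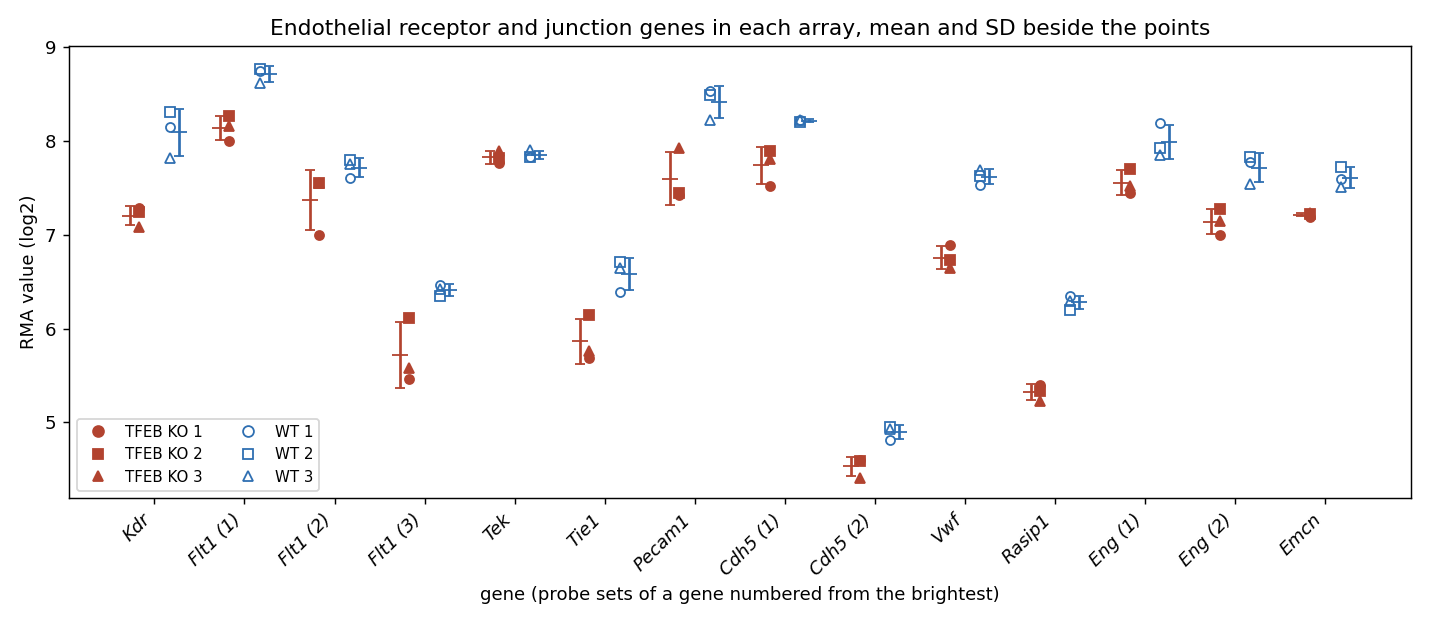
RMA values (log2, vertical axis) of the 14 probe sets of the 10 genes, with TFEB KO arrays (filled red) left of WT arrays (open blue); the symbol gives the mouse, and the bars beside the points give the mean and SD of 3 mice. All TFEB KO points lie below all WT points for every probe set except that of Tek, and levels of different probe sets are not comparable with each other.

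The VEGF receptors were both lower in TFEB KO muscle. Kdr read 7.28, 7.25 and 7.08 in TFEB KO arrays, against 8.15, 8.31 and 7.82 in WT arrays. The groups were apart by 0.54 at their nearest values, and the difference of the means was -0.89 (95% interval -1.20 to -0.58), or 1.85-fold lower. WT 3 was the lowest of its group and TFEB KO 3 the lowest of all 6 arrays.

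Flt1, the VEGF-binding receptor that also has a soluble form, was read by 3 probe sets. The brightest gave 8.00, 8.26 and 8.15 in TFEB KO arrays, against 8.75, 8.77 and 8.62 in WT arrays, a difference of -0.57 (95% interval -0.81 to -0.34), or 1.49-fold lower. The second gave 6.99, 7.55 and 7.55 in TFEB KO arrays, against 7.60, 7.80 and 7.75 in WT arrays, a difference of -0.35 with an interval that reached past 0 (-0.71 to 0.01). Here TFEB KO 1 stood well below the other arrays of its group, and TFEB KO 2 and WT 1 were only 0.04 apart; without TFEB KO 1 the difference was -0.16. The third gave 5.46, 6.12 and 5.58 in TFEB KO arrays, against 6.46, 6.34 and 6.43 in WT arrays, a difference of -0.69 (95% interval -1.06 to -0.32). All 3 probe sets were thus lower, with TFEB KO 1 the lowest array in each, and which form of the Flt1 transcript each reads was not examined.

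The pair of angiopoietin receptor genes did not behave alike. Tie1, which has no well-defined ligand of its own and acts with TEK, read 5.69, 6.14 and 5.76 in TFEB KO arrays, against 6.38, 6.71 and 6.65 in WT arrays. Its difference was -0.72 (95% interval -1.05 to -0.39), or 1.64-fold lower. Tek, the receptor that binds the angiopoietins, read 7.76, 7.82 and 7.89 in TFEB KO arrays, against 7.82, 7.83 and 7.90 in WT arrays. The groups overlapped, and the difference of -0.03 had a 95% interval from -0.23 to 0.17. The smallest difference among the other 9 genes was that of Emcn, at -0.40. Without TFEB KO 1 the difference of Tek was 0.0018. Tek was measured by 1 probe set, so no second reading of it was at hand.

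**Figure D2:**
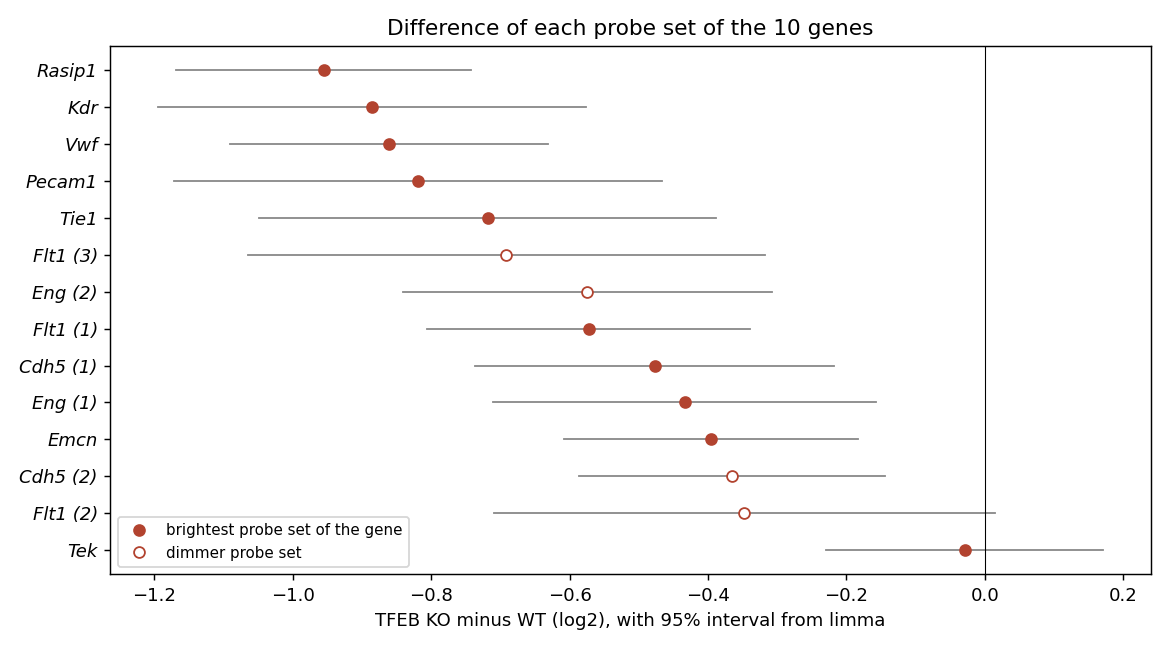
Difference between TFEB KO and WT (log2, horizontal axis) of each of the 14 probe sets, with its 95% interval from limma; filled points are the brightest probe set of a gene and open points the others. Rasip1, Kdr, Vwf and Pecam1 lie between -0.96 and -0.82, while Tek lies at -0.03.

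The junction genes were lower, to different extents. Pecam1, an adhesion molecule of endothelial junctions that platelets and leukocytes also carry, read 7.42, 7.44 and 7.92 in TFEB KO arrays, against 8.53, 8.49 and 8.22 in WT arrays. Its difference was -0.82 (95% interval -1.17 to -0.47), or 1.76-fold lower, and TFEB KO 3 and WT 3 were the nearest arrays of the 2 groups, 0.30 apart. Cdh5, which encodes VE-cadherin, the adhesion molecule of endothelial adherens junctions, read 7.52, 7.89 and 7.80 in TFEB KO arrays, against 8.22, 8.20 and 8.22 in WT arrays on its brighter probe set. The difference was -0.48 (95% interval -0.74 to -0.22), and the WT arrays were tightly grouped (SD 0.01, n = 3) while the TFEB KO arrays spread more (SD 0.20, n = 3). The dimmer Cdh5 probe set gave 4.60, 4.59 and 4.41 in TFEB KO arrays, against 4.81, 4.95 and 4.93 in WT arrays, a difference of -0.37 (95% interval -0.59 to -0.15). Its TFEB KO values lay below 4.69, the level under which the dimmest 25% of probe sets fall.

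Rasip1, whose product is needed in mice for vessels to form a lumen, had the largest difference of the 10 genes and the widest gap between groups. It read 5.40, 5.33 and 5.23 in TFEB KO arrays, against 6.34, 6.20 and 6.29 in WT arrays, a difference of -0.96 (95% interval -1.17 to -0.74), or 1.94-fold lower. The nearest arrays of the 2 groups were 0.80 apart, and the SDs were 0.08 and 0.07 (n = 3 each). The RAP1 and CCM proteins that work with RASIP1 at junctions did not show such a difference: of 7 measured partner genes, 0 passed limma's test in either direction (1 lower and 2 higher at an unadjusted p under 0.05) and the median difference was 0.25. Of all genes, 8.66% were lower and 8.49% higher at an unadjusted p under 0.05, the shares against which such counts in any list are to be read. The smallest p-value among the partner genes was that of Pdcd10, a CCM complex gene, at 0.42 (standard error 0.11, adjusted p = 0.095 from limma). Rap1a followed, at 0.34 (standard error 0.10, adjusted p = 0.13 from limma).

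Vwf, the clotting glycoprotein that endothelial cells store in Weibel-Palade bodies and megakaryocytes also make, read 6.89, 6.73 and 6.64 in TFEB KO arrays, against 7.53, 7.63 and 7.69 in WT arrays. The difference was -0.86 (95% interval -1.09 to -0.63), or 1.82-fold lower, and the groups were 0.64 apart at their nearest values. Markers of platelets and megakaryocytes had a median difference of -0.08, with 0 of 7 past limma's test (1 lower and 1 higher at an unadjusted p under 0.05, against 8.66% and 8.49% of all genes). The smallest p-values were those of Itgb3 (-0.24) and Pf4 (0.62). Emcn, the sialomucin of capillary and venous endothelium, read 7.19, 7.22 and 7.23 in TFEB KO arrays, against 7.60, 7.72 and 7.50 in WT arrays, a difference of -0.40 (95% interval -0.61 to -0.18). The TFEB KO arrays of Emcn were the most tightly grouped of any of the 14 probe sets (SD 0.02, n = 3).

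Eng, the endothelial co-receptor for ligands of the TGF-beta family, was read by 2 probe sets. The brighter gave 7.44, 7.70 and 7.51 in TFEB KO arrays, against 8.19, 7.93 and 7.85 in WT arrays, a difference of -0.43 (95% interval -0.71 to -0.16). The other gave 7.00, 7.27 and 7.14 in TFEB KO arrays, against 7.77, 7.83 and 7.53 in WT arrays, a difference of -0.57 (95% interval -0.84 to -0.31). Both readings of Eng thus had every TFEB KO array below every WT array, and TFEB KO 1 was the lowest array in each. The partner receptor Acvrl1 (ALK1) differed by -0.04 (standard error 0.14), and by 0.10 without TFEB KO 3.

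The arrays of a group were not equally far apart over the 10 genes. The median deviation from the WT mean was -0.72 in TFEB KO 1, -0.45 in TFEB KO 2 and -0.53 in TFEB KO 3, against 0.02, 0.03 and -0.04 in WT 1, WT 2 and WT 3. TFEB KO 1 was the lowest of the 6 arrays for 10 of the 14 probe sets and TFEB KO 3 for the other 4. WT 2 was the highest for 7, WT 1 for 5 and WT 3 for 2. For Kdr, Vwf, Rasip1 and the dimmer Cdh5 probe set the lowest array was TFEB KO 3, so that the order of the TFEB KO mice was not the same for each gene.

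The genes whose pattern over the 6 arrays was most like the mean of the 10 were Egfl7, a secreted endothelial protein (Pearson r = 0.999), then Spr, Ppp1r1a, Ddb1, Sesn3 and Tmem245 (r of 0.994 to 0.992). The arrays share the group difference, and 487 of 12383 genes had r above 0.9, so the likeness is only a description over 6 arrays. Since they were picked for following that mean, their own differences are a description too: they ran between -0.74 for Egfl7 and -0.17 for Sesn3.

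Other endothelial genes were lower in part. Of 94 further genes in 6 lists (receptors, junction and adhesion genes, adhesion molecules induced by cytokines, transcription factors, Notch genes, and capillary surface and caveolar genes), 86 were measured. Of these, 12 were lower and 2 higher at an adjusted p under 0.05 (limma), where 0.702% of all genes were lower and 0.871% higher. The median difference was -0.21, against -0.01 over all genes, and 62 of 86 (72.1%) lay below 0, against 53.4% of all genes. All TFEB KO arrays lay below all WT arrays for 35 of the 86 (12.9% of all genes did) and above them for 10 (10.8% of all genes did). The count of lower genes fell whichever array was left out: 7 without TFEB KO 1, 3 without TFEB KO 2, 3 without TFEB KO 3, 0 without WT 1, 2 without WT 2 and 4 without WT 3. Each of these fits had fewer arrays. Over all probe sets, the lower count in them ran between 4 and 203, against 191 with all 6 arrays. The median stayed between -0.24 and -0.20. The lists here and below were chosen with earlier results of these data known, so their counts give no independent support to those of the 10 genes.

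**Figure D3:**
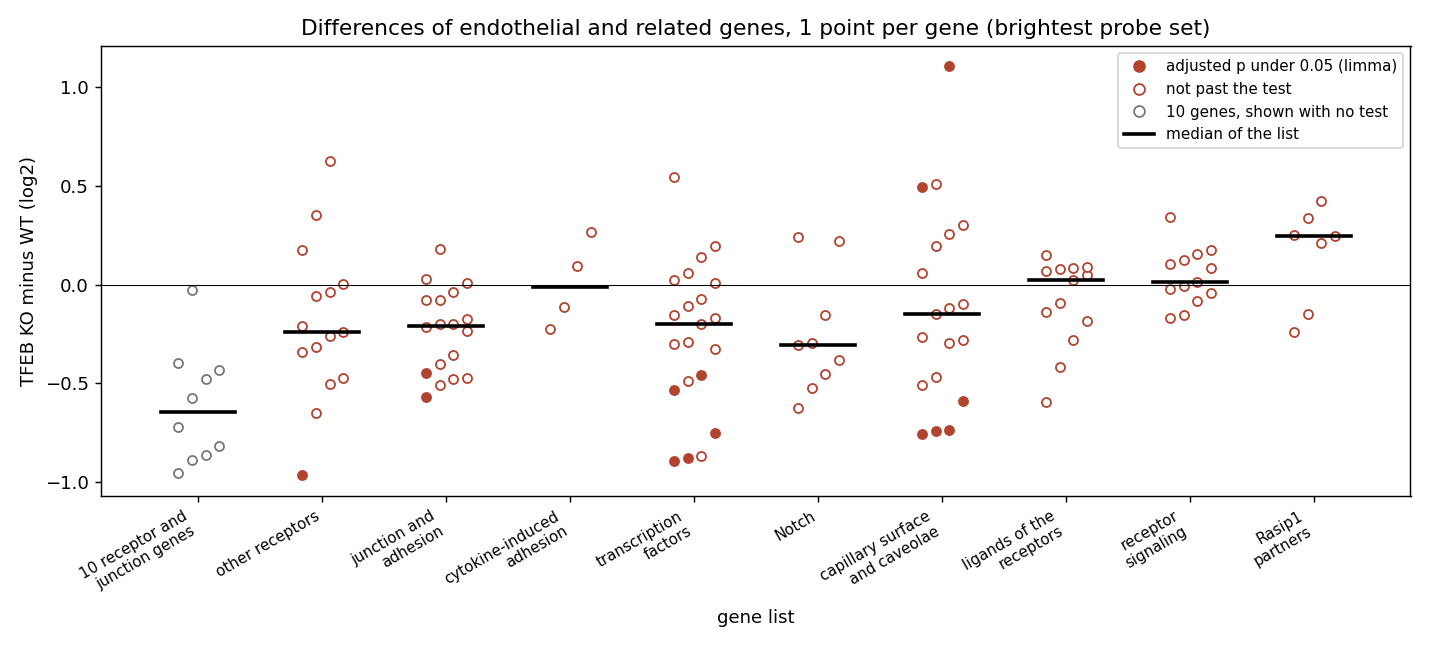
Difference between TFEB KO and WT (log2, vertical axis) of each measured gene of 10 lists on its brightest probe set, with the median of each list as a black bar; filled points passed the test at an adjusted p under 0.05 (limma), and the 10 receptor and junction genes are drawn in gray with no test. The lists of other endothelial genes hold both genes as low as the 10 and genes near or above 0.

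Among transcription factors of endothelium, 5 of 21 were lower and 0 higher at an adjusted p under 0.05 (limma), against 0.702% and 0.871% of all genes. Sox7, a SOXF factor of vessel development, read 5.94, 5.96 and 5.92 in TFEB KO arrays, against 6.76, 6.75 and 6.99 in WT arrays (difference -0.89, standard error 0.10, adjusted p = 0.013 from limma). Bcl6b, a transcriptional repressor with strong expression in endothelium, differed by -0.88 (standard error 0.10, adjusted p = 0.013), and Sox18, also of the SOXF group, by -0.75 (standard error 0.13, adjusted p = 0.041). Elk3, an ETS factor, and Nr2f2, a factor of venous identity, also passed, with differences of -0.46 and -0.53 (adjusted p of 0.045 and 0.048); the other probe sets of both differed by less, between -0.10 and -0.17. The third SOXF gene, Sox17, differed by -0.49 (adjusted p = 0.13), and Klf2, the factor induced by blood flow, by 0.01, with a sign that turned to -0.24 without WT 2.

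Of 15 other receptors, 8 were lower and 1 higher at an unadjusted p under 0.05 (8.66% and 8.49% of all genes), with a median of -0.24. Only Aplnr, the apelin receptor, passed limma's test after adjustment. It read 7.42, 7.23 and 6.99 in TFEB KO arrays, against 7.88, 8.24 and 8.41 in WT arrays (difference -0.97, standard error 0.16, adjusted p = 0.034 from limma). A second Aplnr probe set differed by -0.60 (adjusted p = 0.13). Of all genes, 0.702% were lower and 0.871% higher at an adjusted p under 0.05 (limma). Nrp1, a VEGF co-receptor, differed by 0.01 on its brightest probe set, while a dimmer one differed by -0.50 (adjusted p = 0.043), so its probe sets disagreed. The value on the brightest turned negative in 6 of the other settings, down to -0.06 without TFEB KO 1. Of 18 junction and adhesion genes, Esam (-0.57, adjusted p = 0.045) and Cd93 (-0.45, adjusted p = 0.049) were lower, the second with another probe set at -0.16. Jam2, a junctional adhesion molecule, differed by -0.47 on its brightest probe set (adjusted p = 0.10), while 2 of its other 3 probe sets passed, at -0.64 and -0.62 (adjusted p of 0.041 and 0.045), and a dim one read -0.12. Cd34 (0.03), Cldn5 (-0.08) and the receptor gene Adgrl4 (-0.06), all in use as endothelial markers, were near 0 and changed sign when single arrays were left out, and the arrays of Cldn5 varied widely within both groups (SD 0.39 in TFEB KO and 0.53 in WT, n = 3 each).

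Genes of the capillary surface and caveolae moved in both directions, with 4 of 19 lower and 2 higher (0.702% and 0.871% of all genes). The lower ones were Egfl7 (-0.74, adjusted p = 0.015), Tinagl1, a basement membrane protein (-0.76, adjusted p = 0.027), Nos3, the endothelial nitric oxide synthase (-0.59, adjusted p = 0.046), and Podxl, a surface sialomucin (-0.74, adjusted p = 0.046). A dimmer Podxl probe set differed by -0.34 (adjusted p = 0.26 from limma). Rgcc, a regulator of the cell cycle found in capillary endothelium, was higher: it read 10.50, 10.85 and 10.81 in TFEB KO arrays, against 9.72, 9.67 and 9.46 in WT arrays (difference 1.11, standard error 0.12, adjusted p = 0.014 from limma). Thbd, the anticoagulant receptor thrombomodulin, was higher by 0.49 (adjusted p = 0.049). Cav1, the main caveolar protein of endothelium, differed by -0.10 (standard error 0.08).

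Of 9 Notch genes of vessels, 0 passed limma's test, with a median of -0.31 and with 5 lower and 1 higher at an unadjusted p under 0.05 (8.66% and 8.49% of all genes). Dll4, the Notch ligand of sprouting and arterial endothelium, differed by -0.63 (adjusted p = 0.060) and Notch1 by -0.31 (adjusted p = 0.16). A dimmer Dll4 probe set differed by -0.30 (adjusted p = 0.24 from limma). Of 4 adhesion molecules that cytokines induce on endothelium, 0 passed limma's test (0 lower and 1 higher at an unadjusted p under 0.05, against 8.66% and 8.49% of all genes), and their median was -0.01. The 2 with the smallest p-values were Icam1 (0.27) and Selp (-0.22).

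The ligands of the receptors and the proteins that signal below them gave no call with all 6 arrays in the main test. Of 13 ligand genes 0 passed limma's test (3 lower and 0 higher at an unadjusted p under 0.05, against 8.66% and 8.49% of all genes), with a median of 0.02. The smallest p-values were those of Vegfa, the ligand of both KDR and FLT1, and Vegfb, a ligand of FLT1. Vegfa read 8.87, 8.49 and 8.50 in TFEB KO arrays, against 9.25, 9.10 and 9.32 in WT arrays (difference -0.60, standard error 0.13, adjusted p = 0.062 from limma). Vegfb differed by -0.42 (standard error 0.10, adjusted p = 0.083), and both had every TFEB KO array below every WT array. The call of Vegfa depended on the setting: it passed without TFEB KO 1 (-0.72, adjusted p = 0.028), with array weights (adjusted p = 0.042) and with trended and robust moderation (adjusted p = 0.044), and its adjusted p over the remaining settings was 0.052 to 0.22. The angiopoietins Angpt1 and Angpt2 differed by 0.02 and -0.10, the first with a sign that turned to -0.27 without WT 3. Of 13 signaling genes, 0 passed limma's test (also 0 at an unadjusted p under 0.05) and the median was 0.01, with Nck1 (0.16) and Dok2 (0.34) the 2 smallest p-values.

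Markers of several other cell types moved with the groups. Of 16 macrophage markers, 8 were higher at an adjusted p under 0.05 (limma). Of all genes, 0.871% were higher and 0.702% lower, the shares for each count of calls in this paragraph. All 16 macrophage markers read higher in every TFEB KO array than in any WT array, which 10.8% of all genes did, with a median of 1.06. The mean level of the list was 8.89, 8.34 and 8.32 in TFEB KO arrays, against 7.70, 7.45 and 7.00 in WT arrays, and Ctss, a lysosomal protease of macrophages, differed by 2.07 (adjusted p = 0.014 from limma). The 8 calls became 5 without TFEB KO 1, 1 without TFEB KO 2, 2 without TFEB KO 3, 2 without WT 1, 1 without WT 2 and 2 without WT 3, while the median stayed between 0.86 and 1.20. Macrophages and monocytes can carry some of the 10 genes, Flt1, Pecam1 and Eng among them, and their part in the values of any of the 10 was not tested. Of 11 smooth muscle and pericyte markers, 9 were lower and 0 higher at an unadjusted p under 0.05, against 8.66% and 8.49% of all genes. All TFEB KO arrays lay below all WT arrays for 7 of the 11, as for 12.9% of all genes, and the median was -0.36. At an adjusted p under 0.05 (limma), 2 were lower, Mylk (-0.76) and Acta2 (-0.70). Both calls were lost without TFEB KO 2, TFEB KO 3 or WT 1 and 1 of them without WT 2 or WT 3, with the median between -0.44 and -0.34. The mean level was 8.11, 8.22 and 8.21 in TFEB KO arrays, against 8.67, 8.64 and 8.47 in WT arrays. Of 3 lymphatic markers, 0 were lower and 2 higher at an unadjusted p under 0.05 (8.66% and 8.49% of all genes), with a median of 0.43. Only Lyve1 passed limma's test, higher by 1.03 (adjusted p = 0.035), on 1 of its 2 probe sets. That call was kept only without WT 1 when single arrays were left out (adjusted p of 0.056 to 0.11 without each of the others). Lyve1 is a gene that some tissue macrophages carry as well. Fibroblast markers had 0 of 7 past limma's test (2 lower and 3 higher at an unadjusted p under 0.05, against 8.66% and 8.49% of all genes) and were high in TFEB KO 1 (mean level 11.44, against 10.60 and 10.61 in the other TFEB KO arrays and 10.61 to 10.95 in WT arrays), the array with the lowest median of the 10 genes. The smallest p-values among them were those of Col1a2 (-0.74) and Dpt (0.77). Without TFEB KO 1, 2 fibroblast markers were lower, Col1a2 among them (-1.02, adjusted p = 0.016). Of 3 red blood cell markers, 0 passed limma's test (also 0 at an unadjusted p under 0.05), with a median of -0.06. The part of these cell types in the values of the 10 genes was not tested. The difference between 3′ and 5′ probe sets of Gapdh, a measure of RNA quality, was 0.003 to 0.016 in TFEB KO arrays and -0.063 to -0.004 in WT arrays. That of Actb was -0.105, -0.145 and -0.21 in TFEB KO arrays, against -0.247, -0.252 and -0.144 in WT arrays, and the groups overlapped.

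**Figure D4:**
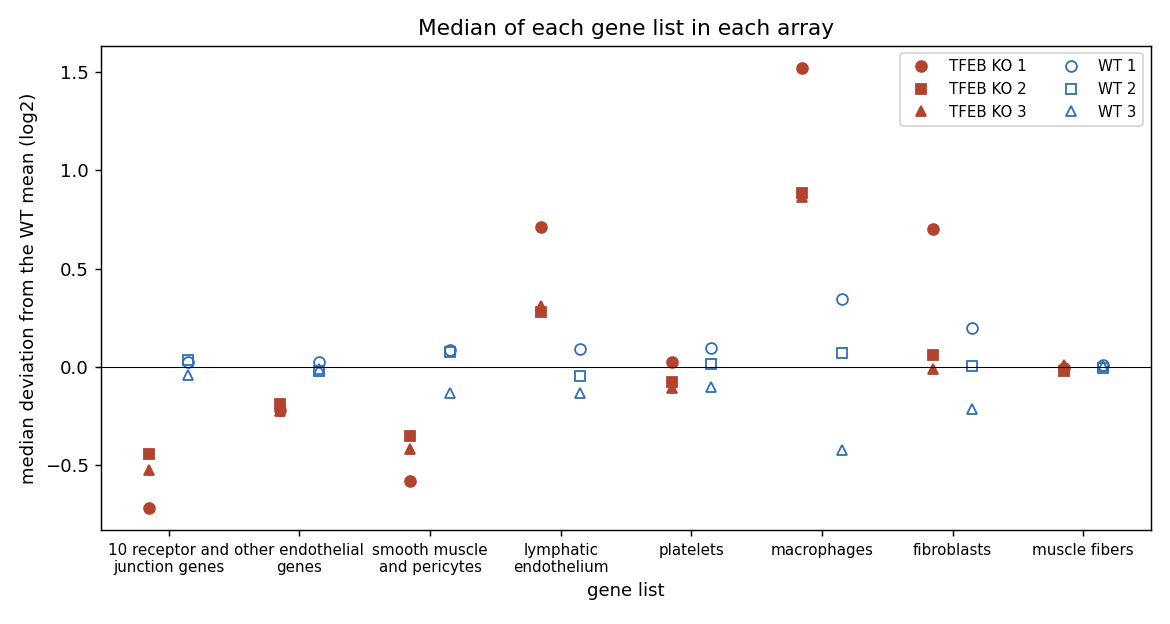
Median deviation from the WT mean (log2, vertical axis) of the genes of 8 lists in each array, with TFEB KO arrays (filled red) left of WT arrays (open blue) and the symbol giving the mouse. The 10 genes lie at -0.72 to -0.45 in TFEB KO arrays, the other endothelial genes at -0.23 to -0.19 and macrophage markers at 0.87 to 1.52, while the median of the muscle fiber markers, most of them near the upper end of the scale, lies between -0.02 and 0.01.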

How the data were processed

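RNA from the muscle of 3 TFEB KO and 3 WT mice was labelled as biotin cRNA, 1 array per mouse. The authors deposited log2 values made with RMA through the R package affy, with versions and settings that the sources used here do not give. The arrays give no depth, and their number limits the precision; 3 arrays against 3 cannot reach an exact permutation p below 0.10. Of 22690 probe sets, 64 controls were left out. Gene names came from the platform annotation (20380 with 1 gene, 691 with several, 1555 with none), and RefSeq IDs changed 0 symbols. TFEB KO was compared with WT by limma 3.58.1 (lmFit and eBayes, two-sided, R 4.3.3, tested on simulated data), with Benjamini-Hochberg adjustment over all 22626 probe sets. Lists are given by their counts and medians on the brightest probe set of each gene. The 10 genes, the lists and the tests were chosen with earlier results of these data known. Names were taken from the 10 genes, Tfeb, up to 4 called genes of each list (otherwise the 2 with the smallest p) and the 6 genes most like the 10 by Pearson r; Sox17, Klf2, Nr2f2, Thbd, Podxl, Nrp1, Acvrl1, Cd34, Cldn5, Adgrl4, Cav1, Jam2, Angpt1 and Angpt2 were named after their values were seen. Promoters are RefSeq sequences of GRCm38.p6; Pecam1, Cdh5 and Vwf were not matched. Figures were drawn with matplotlib 3.10.9. Other settings tried were array weights, the replicate block, a repeated quantile normalization, a shared 75th percentile, a moderation that was trended and robust, removal of dim probe sets, the mean of a gene's probe sets, a minimum of 1.5-fold, controls included, the methods' t-test with and without adjustment, and the removal of 1 array at a time.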

Additional observations from a re-analysis of the deposited data

How the results depend on the processing

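Of 56 named genes outside the 10, 49 kept their direction under every setting run for single genes, and 7 with differences near 0 did not. With single arrays left out, the difference was between -0.244 and 0.223 for Klf2, -0.0601 and 0.121 for Nrp1, -0.137 and 0.12 for Cd34, -0.267 and 0.169 for Angpt1, -0.362 and 0.157 for Cldn5, -0.173 and 0.0918 for Adgrl4, and -0.168 and 0.0969 for Acvrl1. The second quantile normalization gave Nrp1 -0.0228 and Cd34 -0.0043, the shared 75th percentile Nrp1 -0.0035 and Klf2 -0.0025, and array weights Cd34 -0.0296 and Angpt1 -0.133. The median difference of the 10 genes ran between -0.69 and -0.57 with single arrays left out and between -0.65 and -0.63 under other settings. The median of the other endothelial genes was -0.21, -0.23 with dim probe sets left out, and -0.24 to -0.20 with single arrays left out. Over all probe sets, 191 were lower and 170 higher; 296 were lower with array weights and 127 with a minimum of 1.5-fold. The methods' t-test gave 1944 lower and 1338 higher without adjustment, and 1 and 0 after it. With single arrays left out, 4 to 203 were lower and 17 to 235 higher. Of the other endothelial genes, 12 were lower and 2 higher. The methods' t-test gave 27 and 6 without adjustment, and 0 and 0 after it. The shift to a shared 75th percentile gave 1 higher, and so did the minimum of 1.5-fold. Leaving out single arrays gave 0 to 7 lower and 0 to 1 higher, with fewer arrays in the fit. Beyond that, the cause was not tested. With the replicate block, 124 probe sets were lower in all, and 5 other endothelial genes were lower and 1 higher; of the 10 genes 4 were lower. The sample labels number the replicates but do not say that mice were paired. Deviations of arrays with the same number correlated at 0.088, 0.048 and 0.265. TFEB KO 1 and TFEB KO 3 correlated best with the WT array of their own number, and TFEB KO 2 with WT 1 (0.172). With 3 arrays per group these values cannot decide whether mice were paired, so the block is only an alternative.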
